A study of Homo sapiens with 15 samples.

Results

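The comparison described here is free JQ1 with sgRNA against free JQ1 without sgRNA in K562, a human cell line established from a patient with chronic myeloid leukaemia. It rests on 3 libraries labelled Cas9FCPF+sgRNA and JQ1 and 3 labelled Cas9FCPF-sgRNA and JQ1, which are 6 of the 15 libraries of the series and were chosen by these labels. RNA sequencing counts were used for all 57500 genes in the files, of which 15517 passed a filter on low counts and were tested. Both groups received Cas9FCPF by transfection and JQ1 at 1 µM, and are labelled 1 h. Cells of the first group were also given sgRNA. The other 9 libraries, in groups of 3, are JQ1-FCPF with sgRNA, JQ1-FCPF without sgRNA, and a control labelled WT and NT that the design text calls DMSO. What the sgRNA targets is not named, and a non-targeting sgRNA is not among the groups analysed here, so the target of the guide, the presence of a guide and its delivery cannot be told apart. The series title speaks of dCas9, the form that binds DNA without cutting it, whereas the labels speak of Cas9. Whether the 3 replicates of a group were separate cultures is not stated; the p-values below therefore reflect the spread among libraries, and that spread may be technical.

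JQ1 occupies the acetyl-lysine pockets of the BET bromodomain proteins and releases them from acetylated chromatin; genes with short-lived transcripts and strong enhancers, MYC among them, are known to respond early. FCPF is a short peptide tag that reacts with perfluoroaryl groups, so that a compound carrying such a group can be joined to a tagged protein. JQ1-FCPF is the compound named for that tag, and free JQ1 is the form without it. An sgRNA directs Cas9 to a DNA sequence matching its own.

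The first replicate with sgRNA (replicate 1) stood apart from the other 5 libraries, and results are therefore given with and without it. Mitochondrially encoded genes took 7.38% of its counts, against 3.02% and 2.75% in replicates 2 and 3 with sgRNA and 2.28 to 3.18% without sgRNA. Ribosomal protein genes took 8.58% of its counts, against 11.9% and 11.1% in the other libraries with sgRNA and 11.6 to 12.4% without. Among counts from protein-coding genes outside the mitochondrial chromosome, its share from genes over 6000 bases was 36.1%. That share was lower in the rest of its group, at 31.4% and 32.0%, and without sgRNA, at 31.3 to 32.2%. The SD of log2 differences over the 10520 genes at a mean of 5 CPM (counts relative to the scaled library total) or more was 0.331 to 0.387 between replicate 1 and each other JQ1 library, and 0.155 to 0.215 between the other libraries. Replicate 2 of JQ1-FCPF with sgRNA also stood apart: on the first principal component it lay at 32.2, beside the JQ1 libraries at 16.8 to 24.6, whereas the other 2 libraries of its group lay at -16.7 and -14.8. The differences between the compounds and the sets of genes called under JQ1-FCPF are therefore also given without both libraries. Totals were 13017104 to 16299007 counts in the 6 JQ1 libraries. The labels call the cells lymphoblasts: the 11 K562 markers, which include fetal and embryonic globins, erythroid factors, BCR and ABL1, summed to 2077 to 2540 CPM with sgRNA and 2498 to 2700 CPM without, whereas 6 B cell markers summed to 3.68 to 4.75 CPM with sgRNA and 4.52 to 6.3 CPM without.

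**Figure D1:**
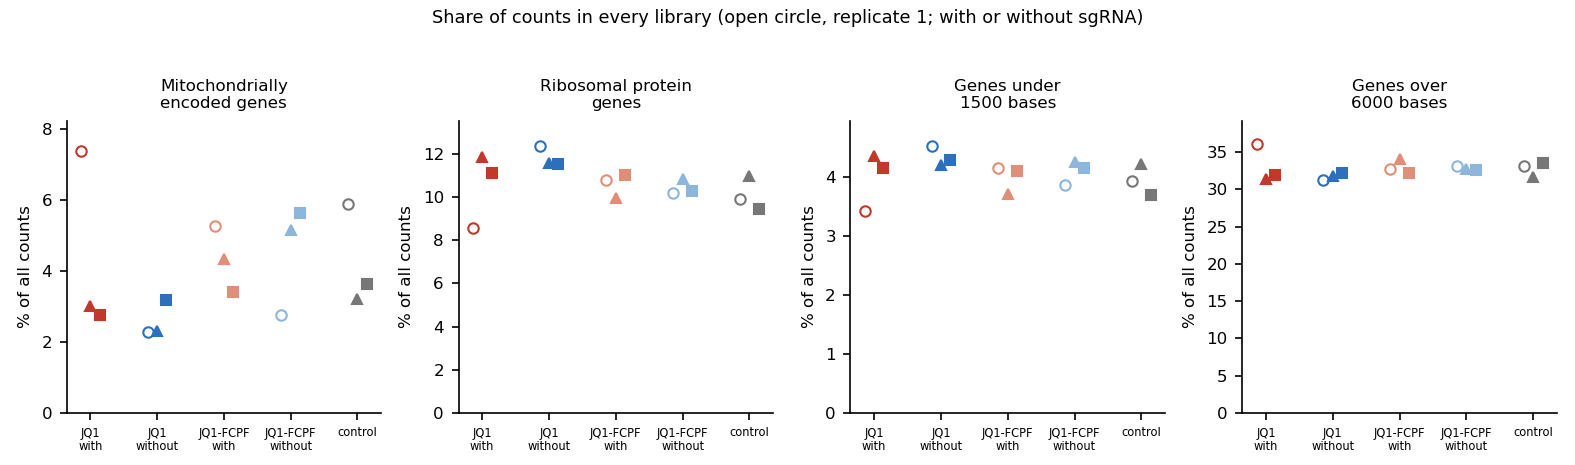
Share of each library's counts (y axis, %) from mitochondrially encoded genes, ribosomal protein genes, genes under 1500 bases and genes over 6000 bases. Each point is 1 library, with groups along the x axis. The mitochondrial and ribosomal shares are of all counts. The shares by length are of counts from protein-coding genes outside the mitochondrial chromosome, although their axes read % of all counts. Replicate 1 of JQ1 with sgRNA (open circle, far left) is the highest of 15 for mitochondrial genes, at 7.38%, and for long genes, at 36.1%, and the lowest for ribosomal protein genes, at 8.58%, and short genes, at 3.43%.

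With sgRNA, 2 genes fell and none rose in the fit of all 15 libraries: HES1 and BHLHE40, both on chromosome 3 and both encoding basic helix-loop-helix repressors of transcription. HES1 is the classical effector of Notch signalling, and BHLHE40 (DEC1) acts in the circadian clock and in responses to stress and cytokines. The 2 calls are 0.0129% of the genes tested, by edgeR's quasi-likelihood test with Benjamini-Hochberg adjustment over all of them, at an adjusted p under 0.05. At an unadjusted p under 0.05 there were 656 higher genes, 4.23%, and 608 lower genes, 3.92%. DESeq2 called 6 genes, 1 higher and 5 lower.

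HES1 (ENSG00000114315, chromosome 3, 194136145 to 194138732 on the plus strand, GRCh38) was at 29.8, 38.5 and 42.2 CPM in the libraries with sgRNA, against 69.7, 57.2 and 70.4 CPM without. The groups did not overlap, and the lowest value came from replicate 1. The means were 36.8 ± 6.4 CPM with sgRNA and 65.8 ± 7.4 CPM without (SD, n = 3 each), a log2 fold change of -0.84 (SE 0.12, 95% interval -1.10 to -0.58), or 1.79-fold lower with sgRNA (edgeR adjusted p = 0.00855). BHLHE40 (ENSG00000134107, chromosome 3, 4979116 to 4985323, plus strand) was at 94.9, 93.4 and 98.3 CPM with sgRNA and 144, 153 and 147 CPM without. Here the 3 libraries with sgRNA were within 5 CPM of each other and replicate 1 lay between the other 2. The log2 fold change was -0.63 (SE 0.09), or 1.55-fold lower with sgRNA (edgeR adjusted p = 0.00623). For BHLHE40 the difference was as large in the fit of 5 libraries that leaves out replicate 1 and the other groups, -0.63 on the log2 scale (edgeR adjusted p = 1.1e-05), and for HES1 it was -0.70 there (edgeR adjusted p = 4.9e-05).

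Both calls depended on which libraries entered the fit. In a fit of only the 6 libraries compared, edgeR's adjusted p was 0.174 for HES1 and 0.0998 for BHLHE40, and no gene was called, with 1306 genes at an unadjusted p under 0.05. Leaving 1 library out of the 15 gave an adjusted p of 0.0515 for HES1 without replicate 1 with sgRNA, 0.0816 without replicate 1 lacking sgRNA and 0.122 without replicate 3 lacking sgRNA. For BHLHE40 the adjusted p was 0.0519 without replicate 1 lacking sgRNA and 0.0578 without replicate 2 lacking sgRNA. The log2 fold change stayed between -0.95 and -0.70 for HES1 and between -0.66 and -0.61 for BHLHE40 over all 18 alternatives.

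The promoter windows of both genes are shown because these are the 2 genes that fell. Each runs 5′ to 3′ and covers 250 bases before and 50 bases after the transcription start in RefSeq (GRCh38.p14, plus strand), at chr3:194135898-194136197 for HES1 and chr3:4979187-4979486 for BHLHE40. Capitals mark matches, on either strand, to the E box CACGTG, a site of BHLHE40 and of MYC with MAX, to the N box CACNAG, a site of HES proteins, and to GTGGGAA, a site of the Notch partner RBPJ.
HES1: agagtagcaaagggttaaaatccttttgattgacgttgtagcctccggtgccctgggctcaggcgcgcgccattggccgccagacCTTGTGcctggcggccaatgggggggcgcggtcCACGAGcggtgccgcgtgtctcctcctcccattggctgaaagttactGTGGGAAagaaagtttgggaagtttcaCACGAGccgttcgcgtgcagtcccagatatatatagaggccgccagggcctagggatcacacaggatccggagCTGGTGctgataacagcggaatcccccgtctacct
BHLHE40: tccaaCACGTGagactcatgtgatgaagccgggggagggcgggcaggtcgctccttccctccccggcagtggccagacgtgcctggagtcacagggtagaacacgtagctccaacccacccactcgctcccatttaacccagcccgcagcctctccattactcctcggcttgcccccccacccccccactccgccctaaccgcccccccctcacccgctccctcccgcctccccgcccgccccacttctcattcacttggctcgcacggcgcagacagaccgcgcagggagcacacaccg
The HES1 window holds 4 N boxes and 1 GTGGGAA, which begins 85 bases before the start, and no CACGTG. The BHLHE40 window holds 1 CACGTG, 245 bases before the RefSeq start, and neither of the other motifs. This window lies inside the gene as counted, which begins at 4979116, so that distance holds for the RefSeq start only. None of the matches overlap. Of 35116 RefSeq promoter windows of this length, 38.0% hold an N box, 7.26% the E box and 6.25% GTGGGAA, so an N box is common. A match is only a run of letters; no binding was measured.

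With JQ1-FCPF, which shares no library with the JQ1 comparison, the same genes were lower with sgRNA by more. HES1 averaged 14.8 ± 0.74 CPM with JQ1-FCPF and sgRNA and 69.2 ± 6 CPM with JQ1-FCPF and no sgRNA, 4.67-fold lower, and BHLHE40 averaged 47.1 ± 5 CPM against 131 ± 2.4 CPM, 2.77-fold lower (SD, n = 3 each). Without both libraries that stand apart, HES1 was 4.53-fold and BHLHE40 2.94-fold lower under JQ1-FCPF. In the control they were at 77.4 ± 9.1 and 185 ± 5.2 CPM. The log2 fold change under JQ1 was less negative than that under JQ1-FCPF by 1.38 for HES1 (95% interval 1.01 to 1.76, edgeR interaction adjusted p = 0.0012) and by 0.84 for BHLHE40 (0.58 to 1.10, adjusted p = 0.00187). In the fit without both libraries these differences were 1.47 and 0.92 (adjusted p = 7.2e-07 and 3.4e-06). The interaction was called for 122 genes, 0.786% of those tested, and JQ1-FCPF with against without sgRNA for 970 genes, 6.25%. The counts of 2 and 970 calls do not themselves compare the compounds; the interaction does.

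**Figure D2:**
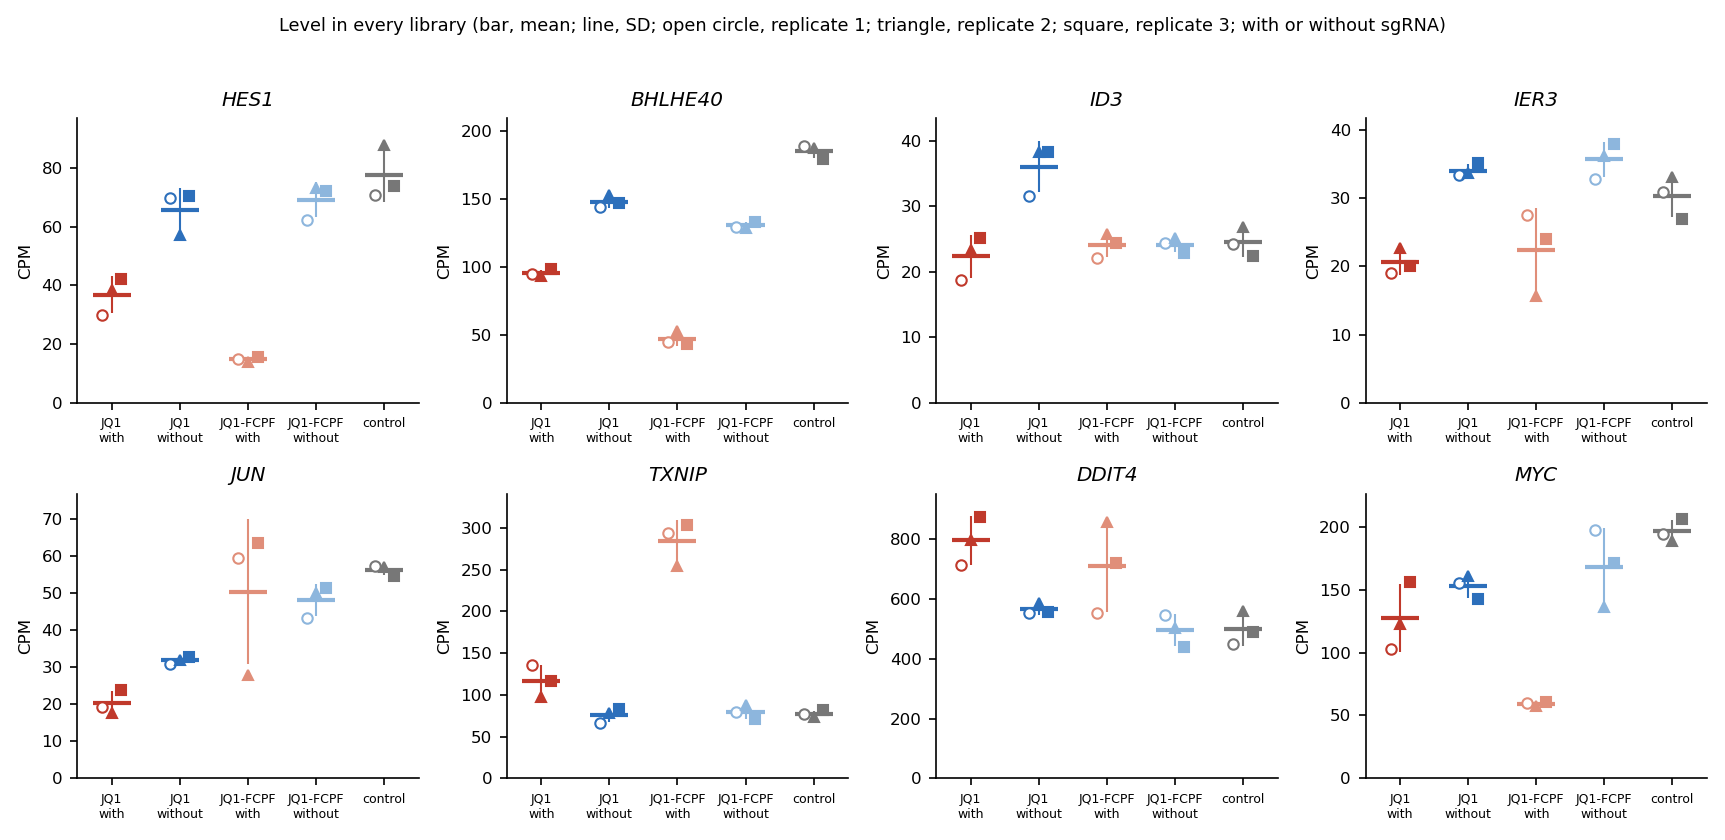
Level (y axis, CPM) of 8 genes in all 15 libraries, by group along the x axis; bars are means, lines SDs, and open circles replicate 1. HES1 and BHLHE40 lie lower in all 3 libraries of JQ1 with sgRNA than in any without, and lower still with JQ1-FCPF and sgRNA; TXNIP shows the opposite order, and ID3 is higher in JQ1 without sgRNA than in every other group.

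More of the genes that fell under JQ1-FCPF lay below 0 under JQ1 than of all genes, by small amounts, and the higher genes leaned less clearly to the same side. Of the 651 genes lower with JQ1-FCPF and sgRNA, 453 (69.6%) had a log2 fold change below 0 under JQ1, with a median of -0.10, against 48.3% and a median of 0.01 over all genes tested. Of the 319 higher genes, 201 (63.0%) lay above 0 under JQ1, with a median of 0.06, against 51.7% over all genes. Among those that moved at least 2-fold under JQ1-FCPF, the median under JQ1 was -0.16 for the 152 lower and 0.23 for the 87 higher genes. The fit of 5 libraries, without replicate 1 with sgRNA, tested 134 of these lower and 75 of these higher genes. Their medians there were -0.15 and 0.13. For changes of any size that fit tested 633 of the lower and 307 of the higher genes. It put 66.35% of these lower genes below 0 (median -0.07, against 49.2% of all genes). Of these higher genes, 56.7% lay above 0 (median 0.04, against 50.8%). Without both libraries that stand apart, 1041 genes were lower and 559 higher under JQ1-FCPF; under JQ1, 65.7% of the lower genes lay below 0, against 51.5% of all genes, and 54.0% of the higher genes above 0, against 48.5%, with medians of -0.06 and 0.03. Genes are not independent replicates, and no test was made of these shares.

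In the fit of 15 libraries, the difference was bounded within 1.5-fold for most genes. The intervals draw on the spread within all 5 groups, not on the 6 compared libraries alone. Of the 10520 genes at 5 CPM or more, 9332 (88.7%) had a 95% interval for the fold change inside 1.5-fold in either direction. For 10424 (99.1%) it was inside 2-fold, and the median half-width was 0.26 on the log2 scale. Over all 15517 genes tested, 9771 (63.0%) had an interval inside 1.5-fold and 12943 (83.4%) inside 2-fold. The 3 libraries with sgRNA lay above all 3 without for 1077 genes (6.94%) and below them for 1320 (8.51%). BHLHE40 and HES1 were the only members called among the 13 tested members of the list of HES proteins, BHLHE40 and their TLE corepressors. They are also the only 2 calls among all genes tested, 0.0129%. The list is named for these genes and was chosen with earlier results known, so their share of it is not a result. The median log2 fold change of the 13 was -0.13, and -0.07 in the fit of 5 libraries, which also called HES6 higher. With the trend in GC content removed from that fit, as described below, no member was called higher. HES6, which counteracts HES1, was at 108, 135 and 147 CPM with sgRNA and 117, 114 and 117 CPM without, so that the groups overlapped, and was chosen after its values were seen. TLE4, a corepressor of HES proteins, was at 9.95, 7.92 and 10.2 CPM with sgRNA against 7.7, 7.85 and 7.2 CPM without (log2 fold change 0.30, edgeR adjusted p = 0.636). Among 26 tested members of the Notch pathway, none was called, 0 were higher and 1 lower at an unadjusted p under 0.05, against 3.92% lower over all genes, and the median was -0.05, or -0.02 in the fit of 5 libraries. That share is about the one over all genes. NOTCH1, the receptor, was at 30.8, 26.4 and 27.8 CPM with sgRNA and 32.8, 33.8 and 29.2 CPM without. NRARP, a feedback inhibitor and direct Notch target, was at 10.8, 11.4 and 9.85 CPM with sgRNA, against 9.5, 16.8 and 14.2 CPM without (log2 fold change -0.34, edgeR adjusted p = 0.603).

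Among genes of the TGF-beta and BMP response, which SMAD proteins switch on, no member of 22 tested was called in the fit of 15 libraries; 6 were lower and 1 higher at an unadjusted p under 0.05, against 3.92% lower and 4.23% higher over all genes. The list median was -0.12, but -0.06 without replicate 1 with sgRNA and -0.05 in the fit of 5 libraries. ID3 and ID1 encode inhibitors that bind basic helix-loop-helix proteins and keep them off DNA. ID3 was at 18.7, 23.3 and 25.1 CPM with sgRNA, against 31.5, 38.2 and 38.3 CPM without. All 3 values with sgRNA lay below those without, at a log2 fold change of -0.69 (SE 0.12, edgeR adjusted p = 0.0585). In the other 3 groups ID3 averaged 24.1 to 24.6 CPM, and JQ1 without sgRNA, at 36 ± 3.9 CPM, had the highest mean of the 5 groups. ID1 was at 41.9, 57.1 and 48.2 CPM with sgRNA and 76.3, 71.7 and 78.6 CPM without (log2 fold change -0.62, SE 0.13, edgeR adjusted p = 0.239). Under JQ1-FCPF, ID1 was lower with sgRNA by 1.01 on the log2 scale and ID3 was at -0.00; neither interaction passed with all libraries (edgeR adjusted p = 0.36 and 0.064). Without both libraries that stand apart, the ID3 interaction was -0.54 and passed narrowly (adjusted p = 0.0499), and that of ID1 was 0.33 (adjusted p = 0.238). TGIF1, a SMAD corepressor, was at 32.6, 32.3 and 33.7 CPM with sgRNA, against 39.3, 46 and 44.9 CPM without. BAMBI, a decoy receptor of the pathway, was at 22.7, 23 and 23.7 CPM with sgRNA and 30.7, 32.6 and 32.7 CPM without. Neither group pair overlapped, and both genes had an edgeR adjusted p of 0.502 in the fit of 15 libraries. BAMBI was chosen after its values were seen.

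Immediate early genes, which growth factor and stress signals induce within minutes, had a median log2 fold change of -0.21 over 35 tested members, against 0.01 over all genes. Their median was -0.20 without replicate 1 with sgRNA and -0.19 in the fit of 5 libraries. None was called; 8 were lower and 0 higher at an unadjusted p under 0.05, against 3.92% lower over all genes, and 13 lay below without overlap between the groups, against 8.51%. IER3, an early response gene that modulates survival, was at 19.1, 22.7 and 20.1 CPM with sgRNA, against 33.3, 33.7 and 35.1 CPM without (log2 fold change -0.72, SE 0.15, edgeR adjusted p = 0.189). The groups were wide apart and each was tight. JUN, a subunit of the AP-1 factor, was at 19.4, 17.6 and 23.9 CPM with sgRNA and 30.9, 31.8 and 32.8 CPM without (log2 fold change -0.65, SE 0.20, adjusted p = 0.502 by edgeR). FOSL1, another AP-1 subunit, was at 25.8, 35.1 and 29.2 CPM with sgRNA and 44.4, 39.2 and 43.5 CPM without. SOCS3, a feedback inhibitor of cytokine signalling, was at 36.8, 42.3 and 40 CPM with sgRNA, against 51.3, 52.8 and 61.4 CPM without. GDF15, a stress-induced secreted factor, was at 96.9, 125 and 121 CPM with sgRNA and 157, 155 and 166 CPM without. SOCS3 and GDF15 are not members of the list of immediate early genes. In each of these 5 genes every library with sgRNA lay below every library without. Absence of overlap is part of the rule by which genes were named, so it is not a separate result. SOCS3 differs from HES1 in how it stands to the other groups: JQ1 without sgRNA, at 55.2 ± 5.5 CPM, was above the control, at 29.5 ± 4.2 CPM.

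No gene was called higher in the fit of 15 libraries. TXNIP, which binds thioredoxin and restrains glucose uptake and is known to rise when BET proteins are blocked, was at 136, 97.3 and 116 CPM with sgRNA, against 66.4, 77.6 and 83 CPM without. The groups did not overlap, and replicate 1 was the highest (log2 fold change 0.62, SE 0.12, edgeR adjusted p = 0.146). Under JQ1-FCPF it was higher with sgRNA by 1.84 on the log2 scale, and the difference between the compounds was -1.22 (edgeR interaction adjusted p = 0.00124). Its paralogue ARRDC4 was at 9.13, 9.43 and 9.18 CPM with sgRNA and 7.27, 7.26 and 5.99 CPM without (log2 fold change 0.43, edgeR adjusted p = 0.523). DDIT4, a stress-induced inhibitor of mTORC1, was at 714, 799 and 877 CPM with sgRNA, against 554, 588 and 558 CPM without (log2 fold change 0.49, SE 0.14, edgeR adjusted p = 0.502). Its log2 fold change under JQ1-FCPF was 0.51, and the difference was -0.02 (interaction adjusted p = 0.97); without both libraries that stand apart these were 0.36 and 0.19 (adjusted p = 0.558). CAPZA2, a subunit of the actin capping protein, was at 31.2, 34.4 and 34.9 CPM with sgRNA and 22.5, 24.3 and 18.2 CPM without. PSD, an exchange factor for ARF6, was at 19.3, 18.9 and 19 CPM with sgRNA and 12.6, 12.3 and 13.5 CPM without. SEPTIN5, a cytoskeletal GTPase, was at 342, 351 and 364 CPM with sgRNA, against 270, 293 and 268 CPM without, whereas under JQ1-FCPF its log2 fold change was -0.47; the difference between the compounds was 0.82 (interaction adjusted p = 0.0049).

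**Figure D3:**
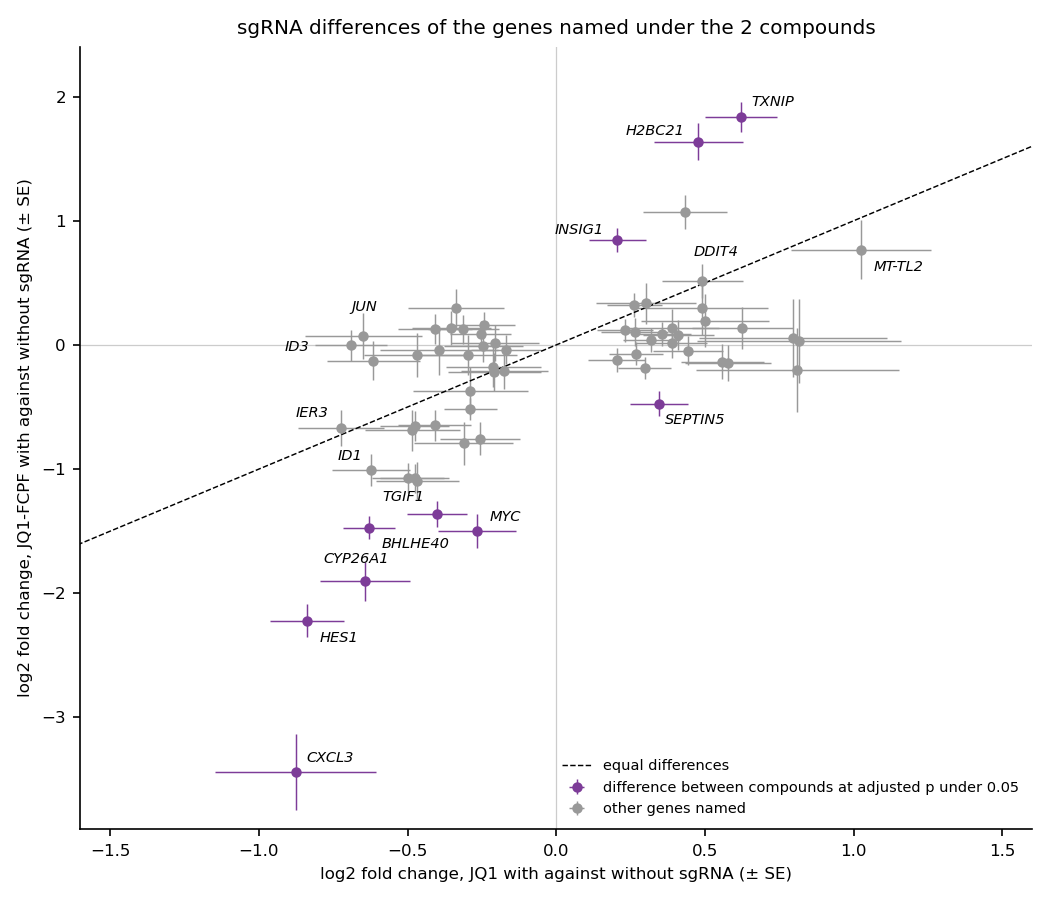
Log2 fold change with against without sgRNA under JQ1 (x axis) and under JQ1-FCPF (y axis), each ± SE, for genes chosen by the rule for named genes; the axes differ in scale and the dashed line marks equal differences. HES1, at -0.84 under JQ1 and -2.22 under JQ1-FCPF, and BHLHE40, at -0.63 and -1.47, lie below the line, TXNIP lies above it, and IER3 and DDIT4 lie on or near it.

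MYC, a main target of BET inhibitors, was not called. It was at 103, 123 and 156 CPM with sgRNA and 156, 161 and 143 CPM without, so that the groups overlapped and the libraries with sgRNA spread more. The log2 fold change was -0.27 (95% interval -0.54 to 0.01, edgeR adjusted p = 0.603), and -0.13 in the fit of 5 libraries; replicate 1 held the lowest value. Under JQ1-FCPF it was -1.50, and the difference between the compounds was 1.24 (edgeR interaction adjusted p = 0.00187; 1.33 without both libraries that stand apart). None of the 10 tested genes of MYC and its neighbours on chromosome 8 was called; their median was -0.18, and -0.09 in the fit of 5 libraries. PVT1, the noncoding gene next to MYC, was at 21.8, 30.4 and 27.5 CPM with sgRNA and 34.4, 29.5 and 30.6 CPM without, and TRIB1 at 6.28, 5.96 and 9.73 CPM with sgRNA and 8.57, 9.02 and 9.7 CPM without. NSMCE2, a SUMO ligase subunit, was the 1 gene of this list at an unadjusted p under 0.05, against 3.92% lower over all genes. It lay at 22.6, 29.2 and 26.4 CPM with sgRNA, against 34.3, 32.9 and 29.9 CPM without. Of 50 MYC target and ribosome biogenesis genes, 2 were higher and 1 lower at an unadjusted p under 0.05, against 4.23% and 3.92% of all genes. Their median was -0.04, or 0.02 in the fit of 5 libraries. RRS1, a ribosome assembly factor, was at 38.6, 51 and 49.5 CPM with sgRNA and 65.6, 57.7 and 61.2 CPM without.

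Of 8 tested markers of BET inhibition, 2 were higher and 0 lower at an unadjusted p under 0.05, against 4.23% and 3.92% of all genes. These were TXNIP and the histone gene H2BC21, which was at 53.4, 37.1 and 36.9 CPM with sgRNA, against 29.4, 29.6 and 32.5 CPM without, with replicate 1 the highest. Histone reads can be shared between near-identical copies, so this value is uncertain. HEXIM1, the inhibitor of P-TEFb and the marker used most, was at 85.9, 86.3 and 80.8 CPM with sgRNA and 93.7, 93.6 and 105 CPM without (log2 fold change -0.21, edgeR adjusted p = 0.714). The median of the 8 was 0.02 under JQ1 (-0.01 to 0.10 over the alternatives) and 0.56 under JQ1-FCPF. Among 21 genes of BET proteins and P-TEFb, NELFCD, a subunit of the pausing factor NELF, was at 136, 137 and 137 CPM with sgRNA and 109, 114 and 111 CPM without (log2 fold change 0.30, edgeR adjusted p = 0.502).

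Leaving out replicate 1 and fitting only the 2 groups gave 187 calls, 129 higher (0.879% of 14673 genes) and 58 lower (0.395%), against 2 in the fit of 15 libraries. In this fit 2 libraries with sgRNA stand against 3 without, and the spread comes from these 5 libraries alone. Leaving replicate 1 out of the fit of all 15 libraries instead gave 1 call, BHLHE40. The 58 lower genes were HES1 and BHLHE40 together with ID1, ID3, TGIF1, BAMBI, IER3, JUN, FOSL1, SOCS3, GDF15, the haematopoietic factor GATA2, the mitotic kinesin KIF20A and others. TNFRSF12A, the receptor of the cytokine TWEAK, was also among them, at 64.4, 73.3 and 69.7 CPM with sgRNA and 91.4, 94.3 and 100.5 CPM without; it was chosen after its values were seen. Among the 129 higher genes were DDIT4, TXNIP, CAPZA2, PSD, SEPTIN5, the kinase gene ARAF, the cell cycle kinase CDK4 and GET4, a factor for tail-anchored proteins. CDK4 was at 69.2, 103 and 115 CPM with sgRNA, against 75.8, 77.8 and 64.7 CPM without, so that replicate 1 lay with the libraries lacking sgRNA and the other 2 above them. ARAF was at 63.5, 77.6 and 90.8 CPM with sgRNA and 57.8, 61.8 and 57.5 CPM without.

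GC content moved with direction in the fit of 5 libraries. The median transcript GC was 55.6% for the 129 higher and 45.0% for the 58 lower genes, against 48.8% over all tested. With genes split by GC into 5 bins of about equal size, the median log2 fold change was -0.07 in the lowest and 0.06 in the highest bin. Taking out a smooth GC trend per library left 120 calls, 68 higher and 52 lower, of which 98 were shared, 52.4% of the 187 and 81.7% of the 120. This correction was chosen after seeing the data. HES1, BHLHE40, ID1, ID3, IER3, JUN, TXNIP, DDIT4, CDK4 and ARAF were called in both. By list, the fit of 5 libraries called 4 lower of 22 TGF-beta and BMP genes with 1 higher, LTBP3 (a TGF-beta binding protein, named after its values were seen), and 4 lower of 35 immediate early genes, against 0.879% higher and 0.395% lower over all genes, and with the GC trend removed it still called 4 lower in each and LTBP3 not. It called 4 higher of 34 cholesterol and fatty acid synthesis genes, against the same 0.879%, and 0 with the GC trend removed. Of the called cholesterol genes, LSS (lanosterol synthase) was at 118, 108 and 131 CPM with sgRNA, against 90.7, 97.5 and 98.7 CPM without, and MVD at 217, 217 and 233 CPM with sgRNA against 184, 183 and 188 CPM without.

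**Figure D4:**
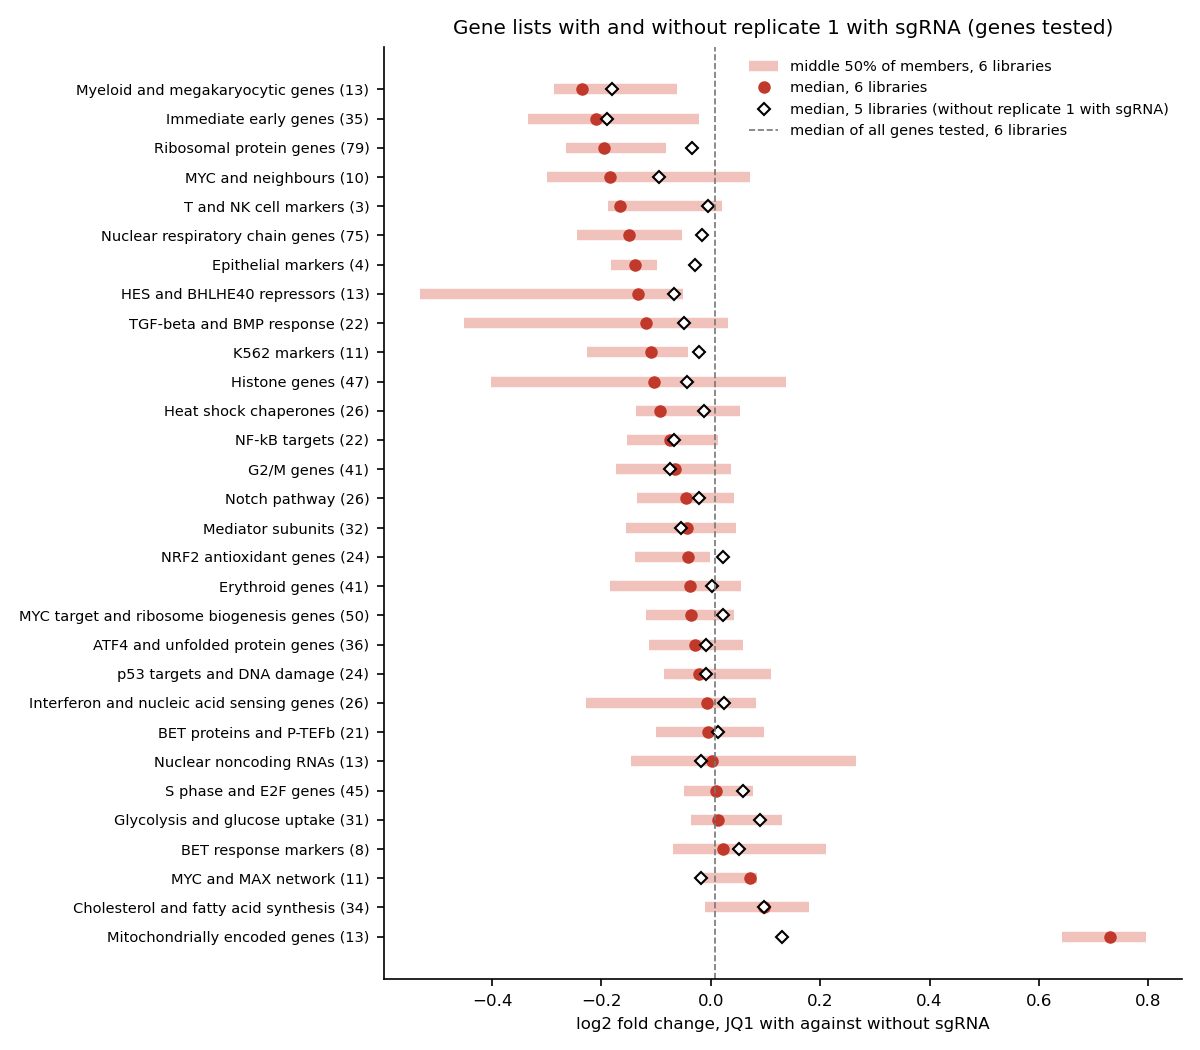
Median log2 fold change with against without sgRNA under JQ1 (x axis) for 30 gene lists (rows, with genes tested), in the fit of all libraries (filled circle; bar, middle 50% of members) and in that of 5 libraries (open diamond). The mitochondrially encoded list lies at 0.73 with replicate 1 and 0.13 without it, whereas the immediate early list lies at -0.21 and -0.19.

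In the remaining lists no gene was called in the fit of 15 libraries, and several lists followed replicate 1. For the 13 mitochondrially encoded genes the median was 0.73 in that fit, and 0.12 when replicate 1 was left out of the same fit; MT-ND4, a complex I subunit, was at 13309 CPM in replicate 1, against 5620 and 4857 CPM in replicates 2 and 3 with sgRNA and 3877, 4216 and 5613 CPM without. The 79 ribosomal protein genes had a median of -0.20 and, without replicate 1, -0.04, and the 75 nuclear respiratory chain genes -0.15 and -0.02. RPS18, a small-subunit protein, was at 1660 CPM in replicate 1 and 3065 and 2760 CPM in the other libraries with sgRNA, against 3687, 3151 and 3510 CPM without. The member counts that follow are at an unadjusted p under 0.05, in the fit of 15 libraries unless another is named. In that fit 3.92% of all genes passed as lower and 4.23% as higher. Among 41 G2/M genes, 5 were lower and 0 higher. In the fit of 5 libraries 13 of the 41 were lower and 3 higher, against 980 lower and 1172 higher of all 14673 genes. The G2/M gene KIF20A was at 48.7, 51.7 and 56.2 CPM with sgRNA and 67.9, 69.3 and 70.6 CPM without (log2 fold change -0.41, edgeR adjusted p = 0.502). Of 13 myeloid and megakaryocytic genes, 4 were lower and 0 higher, with a median of -0.23, or -0.18 in the fit of 5 libraries. GATA2, a factor of early blood progenitors, was at 319, 316 and 321 CPM with sgRNA, against 372, 394 and 403 CPM without (log2 fold change -0.29, edgeR adjusted p = 0.502). The 41 erythroid genes had a median of -0.04, or 0.00 in the fit of 5 libraries, with 1 higher and 1 lower; KLF1, an erythroid master factor, was at 79.4 CPM in replicate 1, 119 and 131 CPM in the others with sgRNA, and 139, 120 and 135 CPM without. Of 47 histone genes, 3 were higher and 8 lower, with a median of -0.10, or -0.04 in the fit of 5 libraries. Of 31 glycolysis genes, 4 were higher and 0 lower, with a median of 0.01. In the fit of 5 libraries 10 were higher and 1 lower of 30, with a median of 0.09. Of all 14673 genes in that fit, 1172 were higher and 980 lower at the same threshold. The 11 genes of the MYC and MAX network had none past the unadjusted threshold and a median of 0.07, or -0.02 in the fit of 5 libraries, and the 13 nuclear noncoding RNAs had 2 higher and a median of 0.00. NF-kB targets, interferon, p53, NRF2, heat shock, ATF4, S phase and Mediator lists had medians between -0.09 and 0.01. In the fit of 15 libraries they had at most 2 members past the unadjusted threshold in a direction. Their medians were between -0.07 and 0.06 in the fit of 5 libraries. There 9 of 45 S phase genes were higher and 2 lower, and 6 of 36 ATF4 genes were higher and 1 lower. Of 32 Mediator genes, 4 were higher and 5 lower in that fit. The other lists of this group had at most 3 in a direction in it. CXCL3, a chemokine gene and NF-kB target, was at 1.74, 2.42 and 1.71 CPM with sgRNA, against 3.82, 2.2 and 4.77 CPM without, which overlap (log2 fold change -0.88, edgeR adjusted p = 0.502).

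Markers of other cell types were low or did not separate the groups. The 8 T and NK cell markers summed to 21.4 to 30.9 CPM with sgRNA and 27.5 to 34.8 CPM without, mostly CD3D, and CD8A had 0 counts in all 6 libraries. The 8 epithelial markers summed to 894 to 1192 CPM with sgRNA and 1157 to 1242 CPM without, mostly the keratins KRT8 and KRT18, with the lowest values in replicate 1. The 9 fibroblast markers summed to 15.2 to 17.2 CPM with sgRNA and 14.3 to 17.8 CPM without. No marker gene was called.

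The gene pattern of replicate 1 followed gene length and GC content. Of 7297 genes at a mean of 20 CPM or more, 307 lay above and 559 below the mean of replicates 2 and 3 by over 0.5 on the log2 scale, whereas 1 and 2 genes differed that much between replicates 2 and 3. With genes in 5 bins, the median difference was -0.30 in the bin of shortest genes and 0.15 in that of the longest, and 0.13 in the bin of lowest GC and -0.21 in that of the highest. Among the largest differences, MT-ND4L was at 1216 CPM in replicate 1, against 401 and 416 CPM in replicates 2 and 3, and MT-ATP8 at 2167 CPM, against 768 and 710 CPM. MRPL54, a mitochondrial ribosomal protein of nuclear origin, was at 24.8 CPM in replicate 1, against 54 and 54.4 CPM, and C4orf48 at 22.6 CPM, against 50.9 and 46.9 CPM. The nuclear RNA NEAT1 was at 859 CPM in replicate 1, against 508 and 501 CPM. On the same log2 scale the difference was -0.44 for HES1, -0.32 for ID1 and 0.35 for TXNIP, whereas it was -0.01 for BHLHE40. The part of length, GC and RNA quality in the HES1, ID1 and TXNIP values was not tested beyond the fits given.

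**Figure D5:**
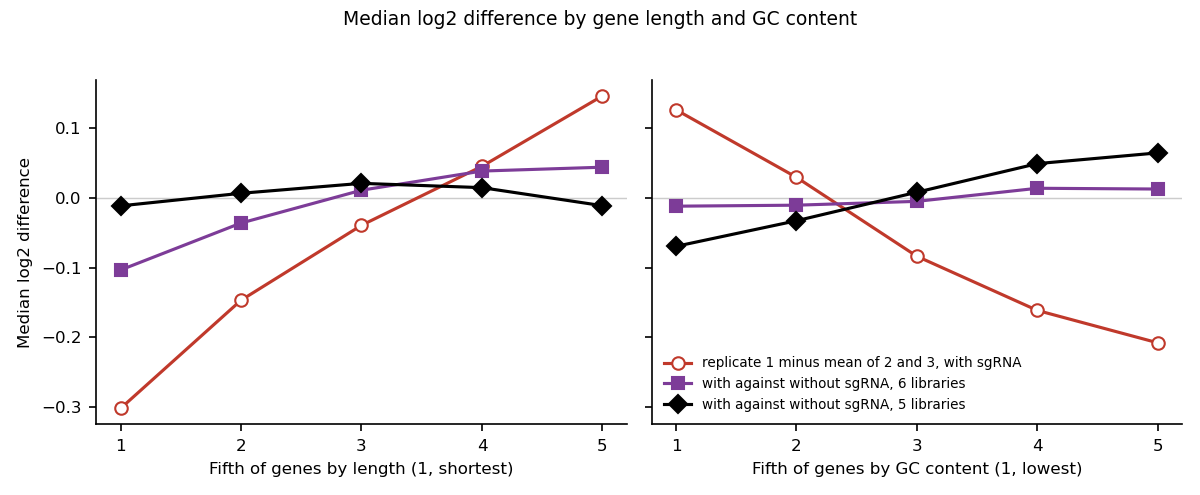
Median log2 difference (y axis) in 5 bins of genes by length and by GC content (x axes, lowest to highest) for replicate 1 against the mean of replicates 2 and 3 with sgRNA, and for with against without sgRNA in 6 and in 5 libraries. Replicate 1 runs upward with length, -0.30 to 0.15, and downward with GC, 0.13 to -0.21; the comparison of 5 libraries is nearly flat over length and runs upward with GC, -0.07 to 0.06.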

How the data were processed

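Per the labels' protocols, RNA was isolated with Trizol, and quality control and sequencing were done by Azenta. The authors deposited raw read counts per gene, 1 file per library, with each gene's exons, strand and length alongside, per the file headers. Aligner, counting program, annotation, kit and use of strand: not given in the sources used here. Among identifiers, 56898 are in GENCODE release 29 and 96.3% of these have the same start and end there, so the build was taken as GRCh38. Symbols were found for 40907 identifiers.

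Deposited counts were analysed with edgeR 4.0.16 (R 4.3.3). The filterByExpr function kept 15517 genes, libraries were scaled by TMM, and a quasi-likelihood fit of the 5 group means used all 15 libraries (biological coefficient of variation 11.1%). Calls are at a Benjamini-Hochberg adjusted p under 0.05 over all genes. Levels are scaled CPM. A prior count of 2 was used for log2 levels, as in the principal components and the differences between libraries, and not for the log2 fold changes. Named genes are MYC and its neighbours, all called genes, the 12 protein-coding genes per direction with the smallest p and no overlap at 5 CPM or more, up to 12 called in other fits, up to 3 per list, and the 6 that differ most in each direction in replicate 1. The comparison, the members and the 33 lists (942 genes, 7 without an entry) were chosen with earlier results of these data known. Alternatives were DESeq2 1.42.0, limma 3.58.1 with library weights, other scalings, no filter, a fit of fewer groups, a replicate block, length and GC trends, and leaving out libraries. GC was known for 99.5% of genes. Replicate numbers come from title letters. Chi-square per degree of freedom between libraries of a group was 3.55 to 48.9, so none was a copy of another. The fit was tested on simulated data. Intervals cover the spread between libraries, and genes at a few CPM have the widest.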

Additional observations from a re-analysis of the deposited data

Results flagged for a closer look

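For 10 genes named in the report, the difference with sgRNA under JQ1 departed from that under JQ1-FCPF in the fit of 15 libraries. The test was the interaction test of edgeR, at an adjusted p under 0.05 over all genes. Values are the log2 fold change under JQ1 minus that under JQ1-FCPF. It was 1.38 for HES1, 0.84 for BHLHE40, 0.96 for TGIF1, 1.24 for MYC, 1.26 for CYP26A1, the enzyme that breaks down retinoic acid, and 2.56 for CXCL3, all of which lay lower with sgRNA under both compounds and by more under JQ1-FCPF. It was -1.22 for TXNIP, -1.16 for H2BC21 and -0.64 for INSIG1, a sterol sensor, which lay higher with sgRNA under both and by more under JQ1-FCPF. For SEPTIN5 it was 0.82, with a log2 fold change of 0.35 under JQ1 and -0.47 under JQ1-FCPF. Of these 10 genes, HES1 and BHLHE40 were called under JQ1. Other named genes passed the same interaction threshold in the fit without both libraries that stand apart. There the difference was -0.98 for JUN, -0.54 for ID3 and -0.47 for HEXIM1. It was 0.89 for PSD, 0.79 for GDF15, 0.69 for KLF1, 0.58 for ARAF, 0.54 for FOSL1 and 0.50 for NELFCD. Without both libraries that stand apart the difference was 1.47 for HES1, 0.92 for BHLHE40, 1.03 for TGIF1, 1.33 for MYC, 1.27 for CYP26A1, 2.76 for CXCL3, 0.78 for SEPTIN5, -1.42 for TXNIP, -1.53 for H2BC21 and -0.72 for INSIG1.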

How the results depend on the processing

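Against the 2 genes called under JQ1 with all 15 libraries, DESeq2 called 6, keeping genes with low counts 80, edgeR on only the 6 libraries 0 (1306 at an unadjusted p under 0.05), library weights 60, a fit without both libraries that stand apart 9, a fit of the 2 groups without replicate 1 with sgRNA 187, and the same with the GC trend removed 120. Leaving out each of the 6 JQ1 libraries in turn gave 0 to 3 calls. DESeq2 size factors, upper-quartile factors and removal of a length trend gave 2 each and removal of a GC trend 3. For the interaction, with 122 calls, DESeq2 gave 267, keeping low genes 316, only the 4 groups 81, library weights 1157, a length trend 193, a fit without both libraries 511 and leaving out each of the 6 JQ1 libraries 50 to 141; the JQ1-FCPF libraries were not left out singly. For JQ1-FCPF, with 970 calls, only its 2 groups gave 351, library weights 2767, and a fit without both libraries 1600. With the replicate block, 3 genes were called under JQ1. In their deviations from the group means, same-numbered JQ1 libraries correlated at -0.35, -0.01 and -0.30, and those of unlike number at -0.29 to 0.36. Deviations from a mean of 3 libraries depend on each other, and replicate 1 with sgRNA stands apart. This check therefore cannot decide whether the letters pair the libraries. No gene whose log2 fold change is given in the text changed sign in any alternative run for JQ1.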
